A study of Homo sapiens with 6 samples.

Results

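The 2′-5′-oligoadenylate synthetase (OAS) family was examined in A549 cells, which are an established line from a human lung adenocarcinoma, after silencing of the long noncoding RNA FAM83H-AS1. Its members were taken by gene symbol as OAS1, OAS2, OAS3 and OASL, which are 4 of the 40173 genes in the count table, and 3 of the 4 had enough counts to be tested. The cells had been transfected with FAM83H-AS1 siRNA (silenced) or with negative control siRNA (control), total RNA was taken 24 h later, and 3 Ion Proton RNA-Seq libraries were made per group. One siRNA was used for the sequenced cells, so that effects of the siRNA itself and of the loss of its target cannot be told apart. The labels do not say that the libraries came from separate cultures, so that the p-values measure the spread between these libraries, which may be technical.

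OAS1, OAS2 and OAS3 are enzymes that bind double-stranded RNA, such as that made during viral infection, and then join ATP into short 2′-5′-linked oligoadenylates. These oligoadenylates serve as messengers of the antiviral response. OASL has the same fold but lacks the synthetase activity and carries ubiquitin-like domains, through which it enhances signalling by the RNA sensor RIG-I. Transcription of the family is induced by interferons through a complex of transcription factors that includes STAT2 and IRF9, and in some settings by interferon regulatory factors without interferon.

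The libraries held 9738291 to 17742643 counts, and 21021 to 22202 genes had at least 1 count. FAM83H-AS1 itself had 141, 185 and 292 counts under control siRNA against 47, 48 and 75 after silencing, and fell by 1.70 on the log2 scale (SE 0.148; edgeR's quasi-likelihood test with Benjamini-Hochberg adjustment, adjusted p = 7.99e-05). In control replicate 3, which was sequenced most deeply, 3.22% of counts fell on RNA5-8SP6, a pseudogene of ribosomal RNA, against 0.241% to 0.448% elsewhere, and the members are therefore also given without that library. Of the epithelial markers, the keratins KRT8 and KRT18 were high at 1863 ± 199 and 1316 ± 75.3 CPM (counts scaled to a common library total after TMM, the trimmed mean of M-values; SD, n = 3) in the control libraries, whereas EPCAM was at 3.86 ± 0.328, CDH1 at 0.78 ± 0.0775 and KRT19 at 0.944 ± 0.301 CPM. KRT18 fell by 0.43 after silencing (adjusted p = 0.00266 in the same edgeR test), and whether this has a part in the results below was not tested. Among markers of leukocytes, endothelium and fibroblasts, PTPRC, CD3E, CD14, PECAM1, COL1A2 and DCN had at most 6 counts in any library, and VWF and COL1A1 had 8 to 32 and 250 to 502.

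The genes of the 3 synthetases lie side by side on chromosome 12, and OASL lies apart on the same chromosome. In GENCODE 29 on the genome build GRCh38, OAS1 (ENSG00000089127.12) spans chr12:112906777-112933222, OAS3 (ENSG00000111331.12) spans chr12:112938352-112973249 and OAS2 (ENSG00000111335.12) spans chr12:112978395-113011723, all on the plus strand. OASL (ENSG00000135114.12) spans chr12:121019111-121039242 on the minus strand. The transcript with the longest coding sequence had 6 exons for OAS1, 16 for OAS3, 12 for OAS2 and 6 for OASL. An antisense gene, AC004551.1, overlaps OAS1, OAS3 and OAS2 on the opposite strand and is not listed under that name in the count table. Whether the counting used strand is not given in the sources used here, so that reads of these genes and of the antisense gene cannot be told apart. No annotated gene overlaps OASL.

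OASL was the member that rose after silencing, to about 3 times its control level, whereas OAS1 and OAS3 differed by about 1.1-fold and did not pass the test. OAS2 was barely detected. Levels are TMM-scaled CPM throughout, and a difference is called when its adjusted p is under 0.05 in edgeR's quasi-likelihood test over 15250 genes. At that threshold 8.75% of all genes tested were higher and 8.27% were lower in the silenced libraries. Of the 3 members tested, 1 was higher and 0 were lower. Because the RNA came from bulk cells, more transcripts per cell and more cells with transcripts cannot be told apart.

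OASL had 127, 110 and 130 counts in control replicates 1, 2 and 3, and 290, 305 and 423 counts in silenced replicates 1, 2 and 3. Scaled, the control libraries held 13.1, 9.5 and 7.69 CPM and the silenced ones 28.3, 28.2 and 31.4 CPM. Every silenced library was above every control library, and the control libraries were spread more widely than the silenced ones. The mean level went from 10.1 ± 2.73 to 29.3 ± 1.84 CPM (SD, n = 3). OASL rose by a log2 fold change of 1.57 (SE 0.162; 95% confidence interval 1.21 to 1.93), which is 2.97-fold (2.32 to 3.8), with an adjusted p of 0.000225 in edgeR's quasi-likelihood test with Benjamini-Hochberg adjustment. Only 1.14% of the genes tested were both called and higher by more than 2-fold, and OASL ranked 52 of 15250 genes by log2 fold change. The exact permutation test over the 6 libraries, two-sided, gave p = 0.1, the smallest value that 3 against 3 libraries allow. Without control replicate 3, which had the lowest OASL level of the 6 libraries, the log2 fold change was 1.39, and without control replicate 1, which had the highest level among the controls, it was 1.78.

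**Figure D1:**
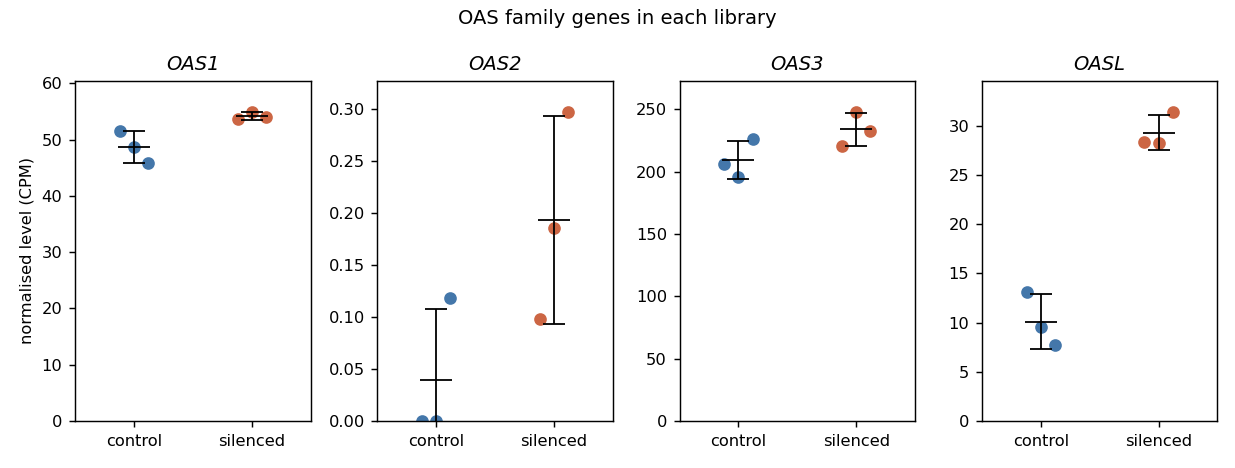
Normalised level in CPM (vertical axis, starting at 0, with a separate scale in each panel) of OAS1, OAS2, OAS3 and OASL in the 3 control and 3 silenced libraries, with the mean and SD as black bars. The silenced libraries lie above all control libraries for OASL (28.2 to 31.4 against 7.69 to 13.1 CPM) and OAS1, whereas the groups overlap for OAS3 and OAS2 is under 0.3 CPM throughout.

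OAS1, the shortest of the synthetases, had 501, 563 and 777 counts under control siRNA and 549, 594 and 726 counts after silencing. Its levels were 51.5, 48.6 and 45.9 CPM in control and 53.6, 54.9 and 54 CPM in silenced cells. The groups did not overlap, which also held in the higher direction for 19.1% of all genes tested. Of the 3 members tested, 2 (OAS1 and OASL) had groups that did not overlap. The means were 48.7 ± 2.78 and 54.2 ± 0.683 CPM (SD, n = 3). The log2 difference was 0.16 (SE 0.076; 95% confidence interval -0.01 to 0.32), or 1.11-fold (0.993 to 1.25), and did not pass edgeR's quasi-likelihood test with Benjamini-Hochberg adjustment (adjusted p = 0.182). The interval leaves room for a difference of up to 1.25-fold. The exact permutation test, two-sided, gave p = 0.1.

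OAS3, the largest synthetase of the family, had 1999, 2269 and 3823 counts under control siRNA and 2268, 2684 and 3140 counts after silencing. Its levels were 206, 196 and 226 CPM in control and 221, 248 and 233 CPM in silenced cells. Silenced replicate 1 lay below control replicate 3, so that the groups overlapped. The means were 209 ± 15.4 and 234 ± 13.4 CPM (SD, n = 3). The log2 difference was 0.16 (SE 0.0778; 95% confidence interval -0.01 to 0.33), or 1.12-fold (0.995 to 1.26), with an adjusted p of 0.174 in edgeR's quasi-likelihood test with Benjamini-Hochberg adjustment. The exact permutation test, two-sided, gave p = 0.2. Without control replicate 3 the log2 difference was 0.11 for OAS1 and 0.22 for OAS3, and neither passed.

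OAS2 had 0, 0 and 2 counts under control siRNA and 1, 2 and 4 counts after silencing. All but 1 library were thus at or under 3 counts, the floor used here, which corresponds to 0.177 to 0.308 CPM depending on the library. Summed over the libraries there were 2 counts in the control group and 7 in the silenced group. The ratio per total count was 3.99, with an exact 95% interval of 0.759 to 39.3 that covers counting error only and includes no difference. OAS2 was not tested, and its few counts do not show whether it changed.

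The plot of all genes tested shows where the members lay. By mean level over the 6 libraries, OAS3 was at percentile 94.8 of the genes tested, OAS1 at 71.3 and OASL at 47.9.

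**Figure D2:**
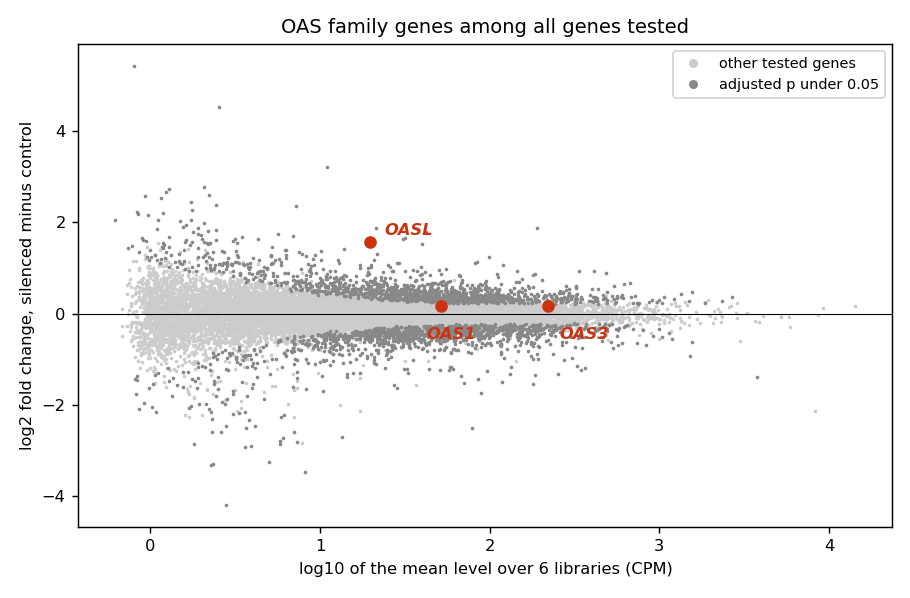
Log2 fold change (silenced minus control, vertical axis) against the log10 of the mean level in CPM over the 6 libraries for the 15250 genes tested, with genes at an adjusted p under 0.05 in dark grey and OAS1, OAS3 and OASL in red. OASL lies at 1.57, near the upper edge of genes with a like level, and OAS1 and OAS3 both at 0.16.

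Per length, OAS3 and OAS1 were the leading members, and the gap between them depended on the length used. Divided by the length of the transcript with the longest coding sequence, the control level was 31.1 ± 2.29 CPM per kb for OAS3, 28.9 ± 1.65 for OAS1, 3.09 ± 0.836 for OASL and 0.0136 ± 0.0235 for OAS2 (SD, n = 3). By this length the gap between OAS3 and OAS1 was about as large as their spread. Per kb of coding sequence OAS3 was at 64.1 ± 4.71 and OAS1 at 39.1 ± 2.24 CPM in the control libraries, and per kb of all annotated exons at 25.4 ± 1.86 and 9.84 ± 0.563 CPM (SD, n = 3), so that OAS3 was above OAS1 by each length. In the silenced libraries OASL was at 8.98 ± 0.563 CPM per kb of transcript, still below OAS1 at 32.2 ± 0.406 and OAS3 at 34.9 ± 1.99.

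Within the family, OASL took a larger share of the counts in every silenced library than in any control library. Of all counts on the 4 members, it took 4.83%, 3.74% and 2.75% under control siRNA and 9.33%, 8.51% and 9.85% after silencing. OAS3 took 78% ± 2.47 and 73.7% ± 1.05, and OAS1 took 18.2% ± 1.55 and 17% ± 0.56 (SD, n = 3 each). The ratio of OASL to OAS1 within a library does not depend on how libraries are scaled to each other. On the log2 scale it was -1.98, -2.36 and -2.58 under control siRNA and -0.92, -0.96 and -0.78 after silencing, a difference of 1.42. The ratio of OASL to OAS3 differed by 1.41, with no overlap of the groups either. Both gave p = 0.1 in the exact permutation test, two-sided, the smallest value possible, and 0.15 after adjustment over the 3 pairs. The log2 ratio of OAS3 to OAS1 differed by 0.01, with an SD of 0.17 in the control and 0.06 in the silenced libraries (n = 3) and p = 1 in the exact permutation test. Pairs with OAS2 have no ratio without an added count, because OAS2 had no counts in some libraries. With 0.5 count added to each gene, the exact permutation test, two-sided, gave p = 0.2 for OAS2 with OAS1, p = 0.1 for OAS2 with OAS3 and p = 0.8 for OAS2 with OASL, and none of the 6 pairs was below 0.2 after adjustment over all 6. In control replicates 1 and 2, where OAS2 had 0 counts, these ratios were set by the added count and the count of the other gene. The log2 ratios of OAS3 to OAS2 were kept apart only by 10.58 in control replicate 3 against 10.56 in silenced replicate 1.

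The 3 genes examined from the oligoadenylate pathway did not pass the test. They were ABCE1, an inhibitor in the pathway that also recycles ribosomes, and PDE12 and AKAP7, which belong to families of phosphodiesterases able to break down the oligoadenylates. ABCE1 differed by 0.01 on the log2 scale (95% confidence interval -0.17 to 0.18), PDE12 by -0.04 (-0.27 to 0.19) and AKAP7 by 0.61 (-0.03 to 1.25). AKAP7 was low, at 14 to 36 counts per library, and its groups overlapped. Of these 3 genes 0 were higher and 0 were lower, with a median of 0.01. Over all genes tested 8.75% were higher and 8.27% were lower, with a median of -0.000672. The counts and medians of the lists that follow stand against the same values.

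Among the other sensors and binders of double-stranded RNA, 3 of the 10 genes tested were higher and 0 were lower, with a median of 0.16. The 3 were the RIG-I-like receptors, a family of RNA helicases. DDX58, which encodes RIG-I, the sensor that OASL enhances, went from 5.92 ± 0.0949 to 10.7 ± 1.71 CPM (SD, n = 3; log2 fold change 0.85, adjusted p = 0.00603 in edgeR's quasi-likelihood test). DHX58, which encodes LGP2, rose by 0.64 (adjusted p = 0.012 in the same edgeR test). IFIH1, which encodes MDA5, rose by 0.56 (adjusted p = 0.0313 in the same edgeR test), but missed the threshold with DESeq2 (adjusted p = 0.0534) and without control replicate 1 or 2 or silenced replicate 1 or 2, which left 2 genes of the list higher. STAU1, which binds double-stranded RNA in mRNA decay, differed by -0.22 and did not pass (adjusted p = 0.0535 in the same edgeR test), but was called lower with DESeq2, with at least 10 counts in every library and with the replicate block. EIF2AK2, the gene of the kinase PKR, differed by 0.24 and did not pass (adjusted p = 0.124 in the same edgeR test).

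Of 6 genes that carry the type I interferon signal to the OAS promoters, 4 were higher and 0 were lower, with a median of 0.40. JAK1, a kinase at the receptor, rose by 0.46, IFNAR2 and IFNAR1, the receptor chains, by 0.44 and 0.35, and STAT2 by 0.40. Without control replicate 2 IFNAR1 missed the threshold (adjusted p = 0.0539 in edgeR's quasi-likelihood test), and without silenced replicate 1 IFNAR2 did (adjusted p = 0.067 in the same test). STAT2 went from 37.4, 42.6 and 47.8 CPM to 54.8, 55.9 and 58.8 CPM, without overlap. Its partner IRF9 did not pass, with a log2 difference of 0.40 (adjusted p = 0.0716 in edgeR's quasi-likelihood test). The kinase TYK2 differed by -0.11. The interferon genes were at or near 0 counts. Of 9 listed, 7, IFNB1 and IFNA1 among them, were at 0 counts in all libraries, which allows up to 0.177 to 0.308 CPM per library, IFNL1 had 1 count in 1 library, and IFNE had 0 to 6 counts.

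Of 5 interferon regulatory factors tested, 1 was higher and 1 was lower, with a median of 0.19. IRF1 went from 34.5 ± 1.92 to 48.7 ± 1.59 CPM (SD, n = 3; log2 fold change 0.50, adjusted p = 0.00266 in edgeR's quasi-likelihood test). IRF3, which is switched on by the RNA sensors, went from 51.3 ± 3.72 to 39 ± 2.01 CPM and fell by 0.39 (adjusted p = 0.0111 in the same edgeR test). IRF2, IRF5 and IRF7 differed by 0.05, 0.20 and 0.19 and did not pass. Of the 4 other interferon receptor chains tested, IFNGR1, a chain of the interferon-gamma receptor, was higher by 0.55, and the list had a median of 0.27. IFNGR1 missed the threshold without control replicate 3 (log2 difference 0.44, adjusted p = 0.0559 in the same edgeR test).

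Some well-known interferon-stimulated genes rose and others did not pass the test. Of 12 tested, 7 were higher and 0 were lower, with a median of 0.64. ISG20, an RNA exonuclease, went from 14.9 ± 1.5 to 46.5 ± 7.48 CPM (SD, n = 3) and rose by 1.65 on the log2 scale. MX2, an antiviral GTPase, rose by 1.57 from 6 to 17 counts per control library to 24 to 40 per silenced library. IFI44 rose by 1.29, IFI6 by 0.53, and IFIT2, IFIT3 and IFIT1, which bind foreign RNA or act with its binders, by 1.17, 0.94 and 0.76. The other 5 did not pass. MX1, the neighbour in kind of MX2, had 7.94 ± 0.0864 CPM in the control and 8.52 ± 1.13 CPM in the silenced libraries (SD, n = 3; log2 difference 0.10, adjusted p = 0.692 in edgeR's quasi-likelihood test). IFIT5, of the same family as the IFIT genes above, differed by 0.10, IFI27 by 0.46, IFI35 by 0.21 and BST2 by -0.15. RSAD2, IFI44L and XAF1, also listed, had at most 3 counts in any library and were not tested.

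Of the 7 tested genes that restrain interferon signalling, 3 were higher and 1 was lower, with a median of 0.26. The higher ones were ISG15, a ubiquitin-like modifier that is itself interferon-stimulated (1.11), SOCS3 (0.32) and PIAS1 (0.26). SOCS3 lost its call in 6 of 13 alternative settings and PIAS1 in 8, so that 1 gene of the list was higher without any 1 of the control libraries or without silenced replicate 1. PTPN1, a tyrosine phosphatase that acts on JAK kinases, went from 105 ± 1.08 to 36.2 ± 2.86 CPM (SD, n = 3) and fell by 1.53 (adjusted p = 6.59e-06 in edgeR's quasi-likelihood test). Among relatives of the OAS fold, 0 of 5 were higher and 1 was lower, with a median of 0.02. It was STRBP, which binds double-stranded RNA and fell by 0.58. MB21D1, which encodes cGAS, the DNA sensor with the same fold as the synthetases, differed by 0.02.

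**Figure D3:**
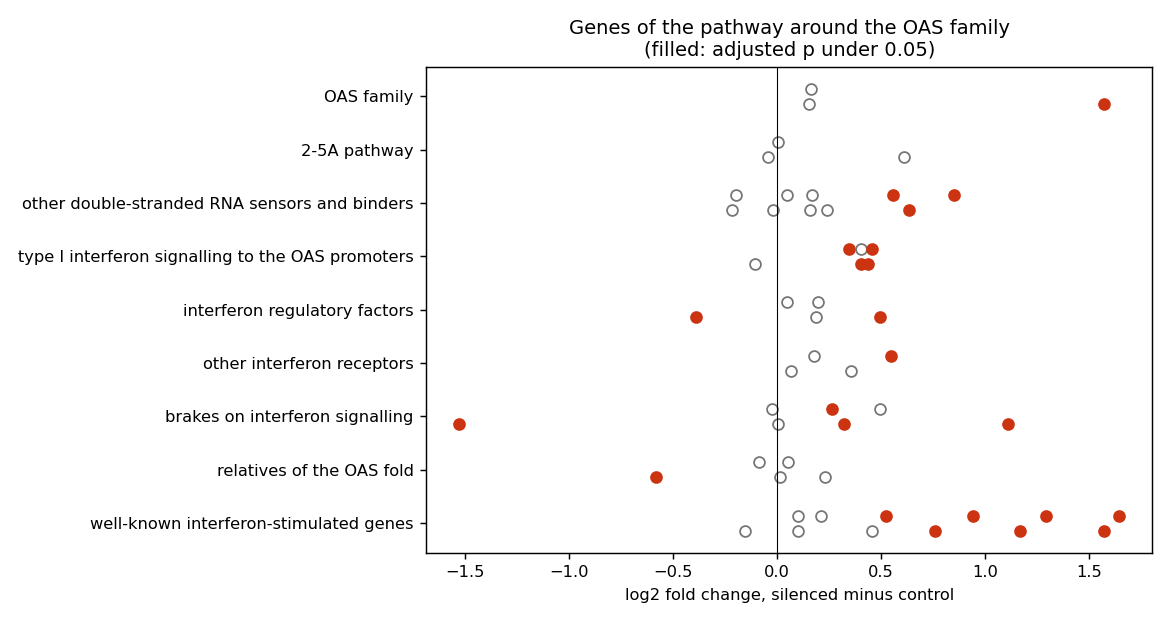
Log2 fold change (silenced minus control) of each tested gene of the OAS family and of 8 lists of genes around it, with filled points at an adjusted p under 0.05 in edgeR's quasi-likelihood test and vertical offsets only to separate points. OASL at 1.57 lies beside the highest interferon-stimulated genes, whereas OAS1 and OAS3 at 0.16 lie among open points, and PTPN1 at -1.53 is the lowest point.

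The genes around the members on the chromosome were examined to see whether the region moved. Over all genes tested 8.75% were higher and 8.27% were lower, with a median log2 difference of -0.000672. Beside OAS1, OAS3 and OAS2, 0 of the 10 nearest tested genes were higher and 4 were lower, with a median log2 difference of -0.24. The 4 lay on the OAS2 side and were DDX54 (-0.33), C12orf52 (-0.40), TPCN1 (-0.28) and SLC8B1 (-0.33). IQCD, on the same side, differed by 0.93 and did not pass (adjusted p = 0.0736 in edgeR's quasi-likelihood test). Beside OASL, 0 of 10 were higher and 1 was lower, KDM2B at -0.26. P2RX4, the nearest tested gene after OASL, differed by 0.66 and did not pass (adjusted p = 0.0865 in edgeR's quasi-likelihood test).

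**Figure D4:**
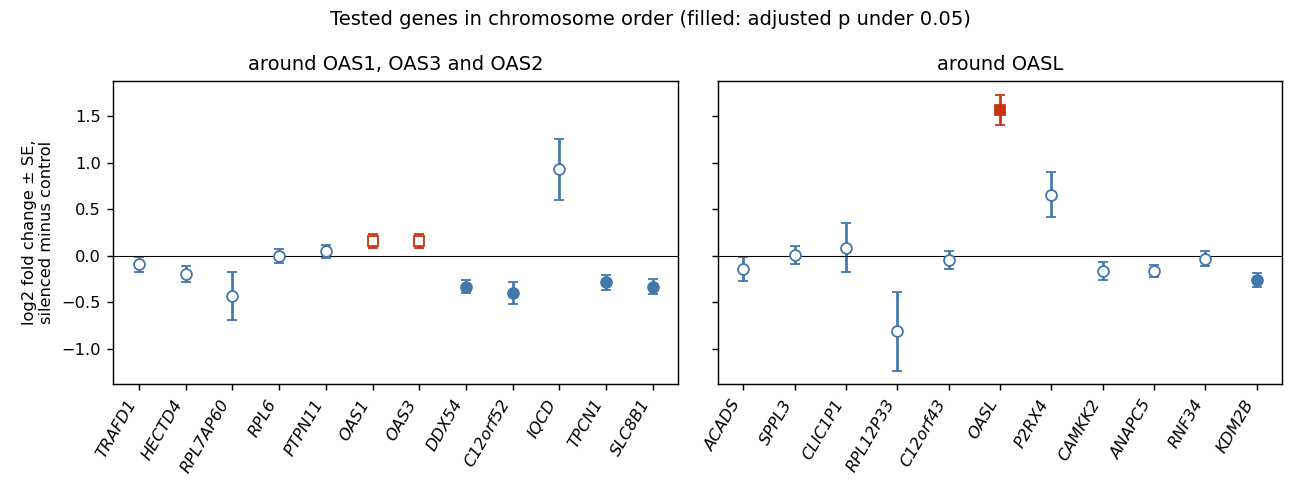
Log2 fold change with its SE (vertical axis) of the 5 nearest tested genes on each side of the OAS1, OAS3 and OAS2 cluster and of OASL, in chromosome order and not to scale, with members as red squares and filled symbols at an adjusted p under 0.05. OASL at 1.57 stands above its 10 neighbours, which range from -0.81 to 0.66.

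Promoter sequence was available for OAS1 and OAS3, 2 of the 4 members, from RefSeq on GRCh38.p14. OAS2 and OASL had no entry in the table. The RefSeq starts of OAS1 and OAS3, from which positions are counted here, lie downstream of the GENCODE starts given above, so that both OAS1 stretches shown and the nearer OAS3 stretch fall inside the genes as GENCODE draws them. The 250 bases before the gene start were searched on both strands for GAAANNGAAA, the core of the interferon-stimulated response element to which the factors above bind. OAS3 held 2 matches, starting 143 and 12 bases before its start, OAS1 held none, and 3.02% of 35116 promoters held at least 1. The pattern asks for exactly 2 bases between the copies of GAAA. The OAS1 promoter held GAAACGAAA near its start, where 1 base lies between the copies, and the pattern misses this. The search therefore does not show that OAS1 lacks the element. The shorter core AANNGAAA of interferon regulatory factors, part of which overlaps that element, was found at 52 and 16 bases before the start of OAS1 and at 147, 141 and 10 bases before that of OAS3, and in 20.3% of promoters. TTCNNNGAA, the gamma-activated site, occurred once, 168 bases before the start of OAS1, and in 6.57% of promoters. The stretches with the shorter core are shown 5′ to 3′ to compare the promoters, with the matches in capitals, all on the plus strand and in the order chr12:112906902-112906925, chr12:112906938-112906961, chr12:112938319-112938348 and chr12:112938456-112938473.
OAS1, farther from the start: gatttgcaAAAGGAAAgtgcaaag
OAS1, nearer to the start: ttctgaggAAACGAAAccaacagc
OAS3, farther from the start: ctagaaagAAACGAAACTGAAAgcagggaa
OAS3, nearer to the start: gggcgggaAAACGAAAcc
The longest words shared by both promoters had 10 bases and lay in the OAS1 stretch nearer to the start and in the OAS3 stretches. GAAACGAAAC occurred in 0.0484% of promoters and AAACGAAACC in 0.0285%. The words were picked because both promoters hold them, so that these shares do not measure how unusual the sharing is. These matches describe the letters only, and binding was not measured.

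The genes whose profile over the 6 libraries was most like that of each member were named by the root mean square difference of log2 CPM, each set to its control mean. For OASL they included EPS8L3 and ALOXE3, at differences of 0.166 and 0.222. EPS8L3 was at 20.7 CPM in the control and 59.4 CPM in the silenced libraries. For OAS1 they were KLF5, SMOX and BNC2, at 0.0174, 0.0178 and 0.025. For OAS3 they were LGMN, PVT1 and ZNF121, at 0.0121, 0.0298 and 0.0311. None of the genes named here belongs to the lists above. Within a distance of 2 times that of the nearest gene lay 20 genes for OASL, 13 for OAS1 and 1 for OAS3. Those not named were not compared with the lists.

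**Figure D5:**
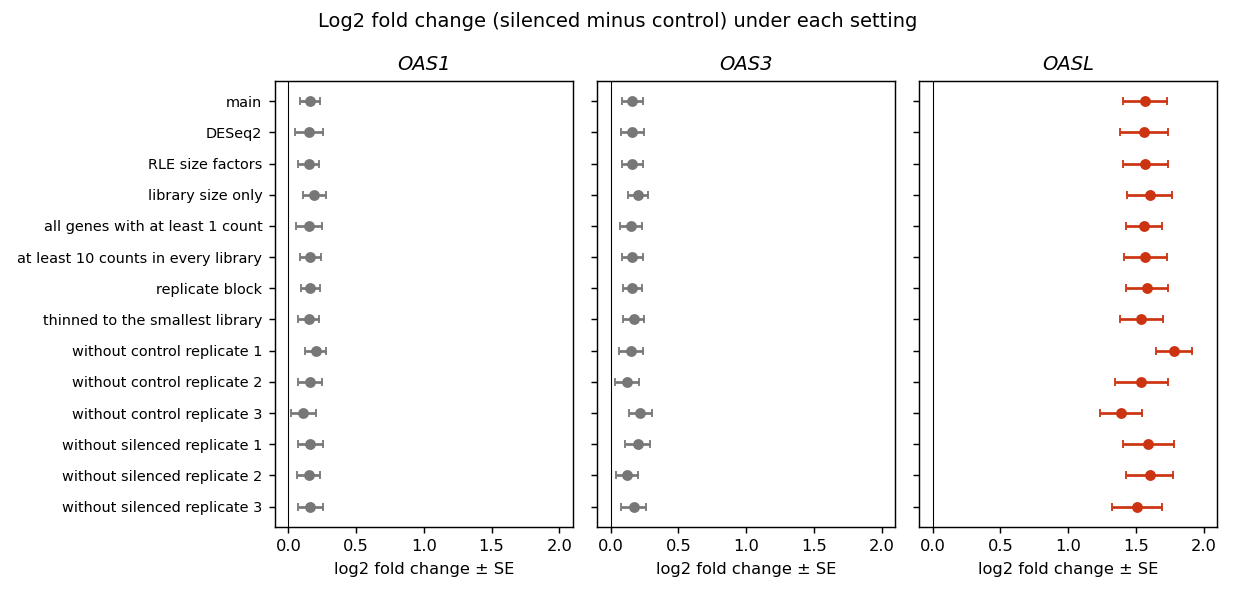
Log2 fold change (silenced minus control) with its SE of OAS1, OAS3 and OASL under the reported settings (top row) and 13 alternatives, in red where the adjusted p was under 0.05. OASL stays between 1.39 and 1.78 and in red throughout, and OAS1 and OAS3 stay in grey between 0.11 and 0.22.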

How the data were processed

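RNA-Seq was performed on total RNA of A549 cells, 3 negative control and 3 FAM83H-AS1-silenced libraries, on an Ion Proton instrument. The authors counted the reads mapped to each gene with MapSplice and compared the groups with DESeq, and the deposited values are raw counts without normalization. The submitters' processing notes name the build GRCh37. The annotation, strand setting and treatment of reads with several matches are not given in the sources used here. Columns were matched to samples by group and replicate number in their names. The study's supplement numbers the silenced replicates differently, and the deposited names were followed.

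Differential expression was tested with edgeR 4.0.16 in R 4.3.3 (filterByExpr, TMM, quasi-likelihood F test, Benjamini-Hochberg adjustment over 15250 genes). Each SE was derived from the log2 fold change and its F statistic. Single values were tested by exact permutation with scipy 1.17.1 in Python 3.11.15. Ratios were tested as counted for 3 of the 6 pairs of members, since OAS2 had no counts in some libraries, and with 0.5 count added for all 6. DESeq2 1.42.0, other scalings and filters, a replicate block, thinning to the smallest library and each library left out in turn were alternatives. Both fits were tested on simulated data. Library totals ranged from 9738291 to 17742643 counts, and intervals of counts cover counting error only.

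Locations came from GENCODE 29 on GRCh38 and promoters from RefSeq, matched by symbol. The length over all annotated exons, the shorter promoter core and the shared words were chosen after the data had been seen. Genes were named if they were members, if they were list genes with an adjusted p under 0.05, if they belonged to the oligoadenylate, interferon signalling or regulatory factor lists, or if they were among the 3 genes most like a member, and neighbours, markers and list genes that did not pass were added where a count called for an example. The members and lists were chosen with earlier results of these data known. Protein sequences were not analysed here, and some genes of the lists, markers and like profiles are not reported here and were left out of the list counts.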

Additional observations from a re-analysis of the deposited data

How the results depend on the processing

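Under the 13 alternatives OASL stayed higher and passed in each, with log2 fold changes of 1.39 to 1.78 (without control replicate 3 and without control replicate 1) and an adjusted p of at most 0.00267. OAS1 (0.11 to 0.20) and OAS3 (0.12 to 0.22) stayed above 0 and passed in none, with adjusted p-values down to 0.138 and 0.0891 (edgeR or DESeq2, Benjamini-Hochberg). With only library size as scaling, 61.1% of the 2546 called genes were higher, against 51.4% of 2595, and the median of all genes was 0.03. An adjusted p under 0.01 left 903 called genes, and leaving out 1 library gave 1225 (silenced replicate 1) to 1962. Calls with a fold change over 2 numbered 326, but 583 among all genes with at least 1 count, 199 with at least 10 counts in every library, 200 without silenced replicate 1 and 148 at an adjusted p under 0.01. ABCE1 changed sign to -0.00 with all genes of at least 1 count and ranged from -0.05 to 0.06 with a library left out, and PDE12 from -0.10 to 0.03. With all genes of at least 1 count, edgeR gave every gene one pooled spread (103456 degrees of freedom against a median of 11.2), so that its p-values are smaller than the replicates warrant. That fit was the only one to hold OAS2 (adjusted p = 0.441), and the other alternatives gave no value for it. A replicate block gave log2 fold changes of 0.16 for OAS1 and for OAS3 and 1.58 for OASL, and called 3449 genes. The loose filter called 3449 as well, with 3012 genes in both sets. Same-numbered libraries correlated at 0.124, 0.149 and 0.067 in their deviations, so that the numbers were not taken as pairs, although each library correlated best with its own number, a hint from the data only, and the silenced replicates are numbered differently in the study's supplement. OAS2 was limited by its low counts.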
